A study of Homo sapiens with 6 samples.

Results

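The genes described here are 10 SRF-dependent contractile actin genes, namely ACTA2, TAGLN, CNN1, CNN2, MYL9, TPM1, TPM2, TPM4, CALD1 and the gene of the transcription factor itself, SRF. They were chosen by gene symbol, with earlier results of these data known, from 26364 symbols with a value in each library. Of the 10, 9 had an FPKM averaging 0.5 or more across the libraries, the filter that left 15504 genes for testing. FPKM counts sequenced fragments per length of transcript and per depth of the library, and is therefore a level per length. MYL9 did not pass that filter and was not tested.

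RNAseq was performed on total RNA, depleted of ribosomal RNA, from A673/TR/shEF cells. The A673 line was derived from an Ewing sarcoma and depends on the fusion oncogene EWSR1::FLI1, and this derivative holds a tetracycline repressor and an shRNA against EWSR1::FLI1 that doxycycline switches on. The 3 EWSR1::FLI1high samples were grown without doxycycline and the 3 EWSR1::FLI1low samples with 1 µg/mL of it for 72 h, and all 6 came from engineered cells kept under blasticidin and zeocin selection. The comparison asks which genes change when the fusion is knocked down. All samples come from a single cell line, no culture without the shRNA received the drug, and effects of doxycycline and of the knockdown cannot be told apart. The labels call the replicates clones in one place and number them as experiments in another, so p-values measure only the spread between these samples. FLI1, the gene that gives the fusion its DNA-binding end, had 11.3, 12.7 and 14.2 FPKM in the EWSR1::FLI1high libraries and 2.91, 4.29 and 3.68 FPKM in the EWSR1::FLI1low libraries (log2 fold change -1.57, SE 0.18, adjusted p = 0.000676, limma). The groups did not overlap and FLI1 fell, as the labels state. Reads on genes numbered between 6980361 and 16658933 per library, with the deepest in the EWSR1::FLI1low group.

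SRF is a transcription factor that binds the CArG box, a short DNA element with a core rich in A and T. Its cofactors of the myocardin family, MRTFA and MRTFB, are held in the cytoplasm by monomeric actin and enter the nucleus when actin is driven into filaments, so genes of the contractile actin cytoskeleton are read out as filaments assemble. In smooth muscle and in fibroblasts with stress fibres the products of these genes form and regulate the actin filaments on which myosin pulls, and another set of SRF targets, the immediate-early genes, responds through the ternary complex factors instead. That these genes depend on SRF is background knowledge, since SRF was not perturbed in these cells.

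The CArG box was looked for in promoter windows of 300 bases, from 250 bases before to 50 bases after a transcription start, in the RefSeq table for GRCh38.p14. The table held 16 windows for 8 of the genes, with no entry for TAGLN or MYL9. An exact box was found in windows of 3 genes, CNN2, TPM4 and SRF. Exact boxes occur in 454 of all 35116 windows, which is 1.29%. Counted by gene, 1.604% of the 10847 tested genes with a window held an exact box. The box has the same consensus on both strands, so one search covered both. The stretches with these boxes are shown because the genes that hold them are among those that did not pass the test below. They are printed 5′ to 3′ on the strand of the gene with the box in capitals. The CNN2 box starts 89 bases before the start site (chr19:1026509-1026538, plus strand), the TPM4 box 173 bases before it (chr19:16067355-16067384, plus strand), and SRF has a pair at 30 and 10 bases before its own start (chr6:43171239-43171268, plus strand). In ACTA2 a match with 1 mismatch starts 121 bases before the start site (chr10:88952875-88952904, minus strand). Another in the same window starts 71 bases before it (chr10:88952825-88952854, minus strand) and is not printed. When 1 mismatch is allowed, 18.9% of all windows hold a match.
CNN2: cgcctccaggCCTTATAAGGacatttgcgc
TPM4: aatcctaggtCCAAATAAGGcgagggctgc
SRF: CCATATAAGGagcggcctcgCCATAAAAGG
ACTA2: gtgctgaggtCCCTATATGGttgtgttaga
With 1 mismatch allowed, 5 of the 8 genes had a match, ACTA2 and CALD1 being the additions. This counts genes, some with several windows, whereas the 18.9% is a share of windows. The windows of TPM1, TPM2 and CNN1 held none of either kind. A match is a description of these letters and not a binding site, and the windows leave out introns and distal elements.

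Upon EWSR1::FLI1 knockdown TPM1, TAGLN, CALD1 and CNN1 rose, TPM1 and TAGLN by 9.80-fold and 9.41-fold in mean FPKM. TPM2 and ACTA2 had higher values in all EWSR1::FLI1low libraries without passing the test, and CNN2, TPM4 and SRF had overlapping values in both groups. At an adjusted p under 0.01 (limma on log2(FPKM + 1), Benjamini-Hochberg over all genes tested), 4 of the 9 tested genes were higher and 0 lower. Over all genes tested, 4.51% were higher and 3.37% lower. Among the 4, CNN1 passed the filter only through its EWSR1::FLI1low values. At its EWSR1::FLI1high mean of 0.201 FPKM, only a rise could be tested. Both TPM1 and TAGLN also exceeded a log2 fold change of 2.5, a limit passed upward by 0.813% of all genes tested. For 6 of the 9 genes every EWSR1::FLI1low library lay above every EWSR1::FLI1high library, as it did for 17.5% of all genes tested. The median log2 fold change of the 9, CNN1 included, was 1.06, against -0.05 over all genes tested. The set was chosen with earlier results of these data known, so its counts and median only describe it. For a single gene, 3 libraries against 3 cannot give an exact two-sided permutation p below 0.1, and these 6 genes have that value. In bulk RNA, a change in how many cells express a gene and a change in its RNA per cell cannot be told apart.

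**Figure D1:**
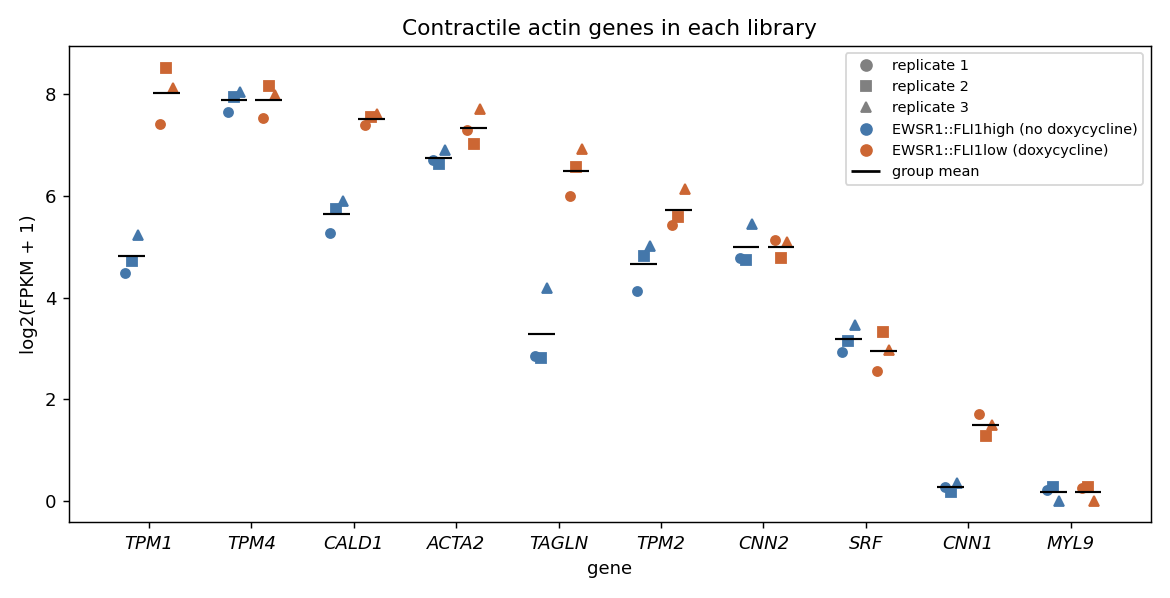
Level of each of the 10 genes in each library, as log2(FPKM + 1) on the vertical axis, with EWSR1::FLI1high libraries in blue, EWSR1::FLI1low libraries in orange, a symbol for each replicate number and a bar at the group mean. The orange points lie above all blue points for TPM1, CALD1, ACTA2, TAGLN, TPM2 and CNN1, and overlap them for TPM4, CNN2, SRF and MYL9.

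Tropomyosins are coiled-coil proteins that lie along the actin filament and govern access of myosin and of severing proteins. TPM1 (ENSG00000140416, chr15:63334819-63364114 in GRCh37, plus strand) had 21.2, 25.4 and 36.7 FPKM in EWSR1::FLI1high replicates 1, 2 and 3, and 170, 368 and 279 FPKM in the EWSR1::FLI1low replicates. The lowest EWSR1::FLI1low library was thus well above the highest EWSR1::FLI1high library. The means were 27.8 ± 7.999 and 272 ± 99.4 FPKM (SD, n = 3), and the log2 fold change was 3.21 (SE 0.31, 95% interval 2.52 to 3.91, adjusted p = 0.000287, limma). Its level stood above that of 79.6% of all genes tested in the EWSR1::FLI1high mean and above 99.4% in the EWSR1::FLI1low mean.

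TPM2 (ENSG00000198467, chr9:35681989-35690053, minus strand), the beta-tropomyosin gene, had 16.4, 27.3 and 31.5 FPKM in the EWSR1::FLI1high libraries and 41.9, 46.9 and 69.8 FPKM in the EWSR1::FLI1low libraries. The groups did not overlap, and the mean ratio was 2.11. The log2 fold change of 1.06 (SE 0.29, 95% interval 0.42 to 1.71) did not pass the test, with an adjusted p of 0.0317 in limma. TPM2 passed in limma fits with a replicate block (adjusted p = 0.00614), quantile normalization (0.00760) and sample quality weights (0.00475). These fits called 11%, 12.8% and 30.6% of all genes tested, against 7.88% in the main fit. In no other fit was its adjusted p under 0.01, and the highest was 0.144, in limma without a filter on low values.

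TPM4 (ENSG00000167460, chr19:16177831-16213812, plus strand), a tropomyosin of non-muscle filaments, had 200.6, 245 and 264 FPKM in the EWSR1::FLI1high libraries and 184, 287 and 255 FPKM in the EWSR1::FLI1low libraries. These ranges overlap. The log2 fold change was 0.02, with a 95% interval of -0.45 to 0.48 (adjusted p = 0.969, limma), an interval that leaves room for a modest change in either direction. TPM3, the remaining tropomyosin gene, had 70.5 to 85.7 FPKM and 43.7 to 78.0 FPKM in the respective groups (log2 fold change -0.33, adjusted p = 0.385, limma).

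The make-up of the tropomyosin pool was therefore compared as the share of each gene in the summed FPKM of the 4 genes, a measure that does not depend on the scaling between libraries. TPM1 made up 6.88%, 6.66% and 8.78% of the pool in the EWSR1::FLI1high libraries and 38.6%, 47.4% and 40.9% in the EWSR1::FLI1low libraries. TPM4 made up 65.0%, 64.2% and 63.2% in the former and 41.9%, 36.9% and 37.4% in the latter. Taken from summed reads, which longer transcripts weight more, the mean share of TPM4 fell by 10.4 points, against 25.4 points from FPKM. In FPKM, TPM1 went from a minor share to one near that of TPM4, with non-overlapping values for both genes. The mean share of TPM3 was 21.8% ± 1.19 and 10.3% ± 0.987, and that of TPM2 6.66% ± 1.18 and 8.61% ± 2.25 (SD, n = 3). The exact two-sided permutation p was 0.1 for TPM1, TPM3 and TPM4, the smallest possible, and 0.3 for TPM2. Among 19 such shares computed over the 5 families, 15 had that smallest p, which no adjustment over 19 shares can bring under 0.05. The summed level of the pool was 369 ± 55.7 FPKM in EWSR1::FLI1high and 632.5 ± 174 FPKM in EWSR1::FLI1low cells.

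**Figure D2:**
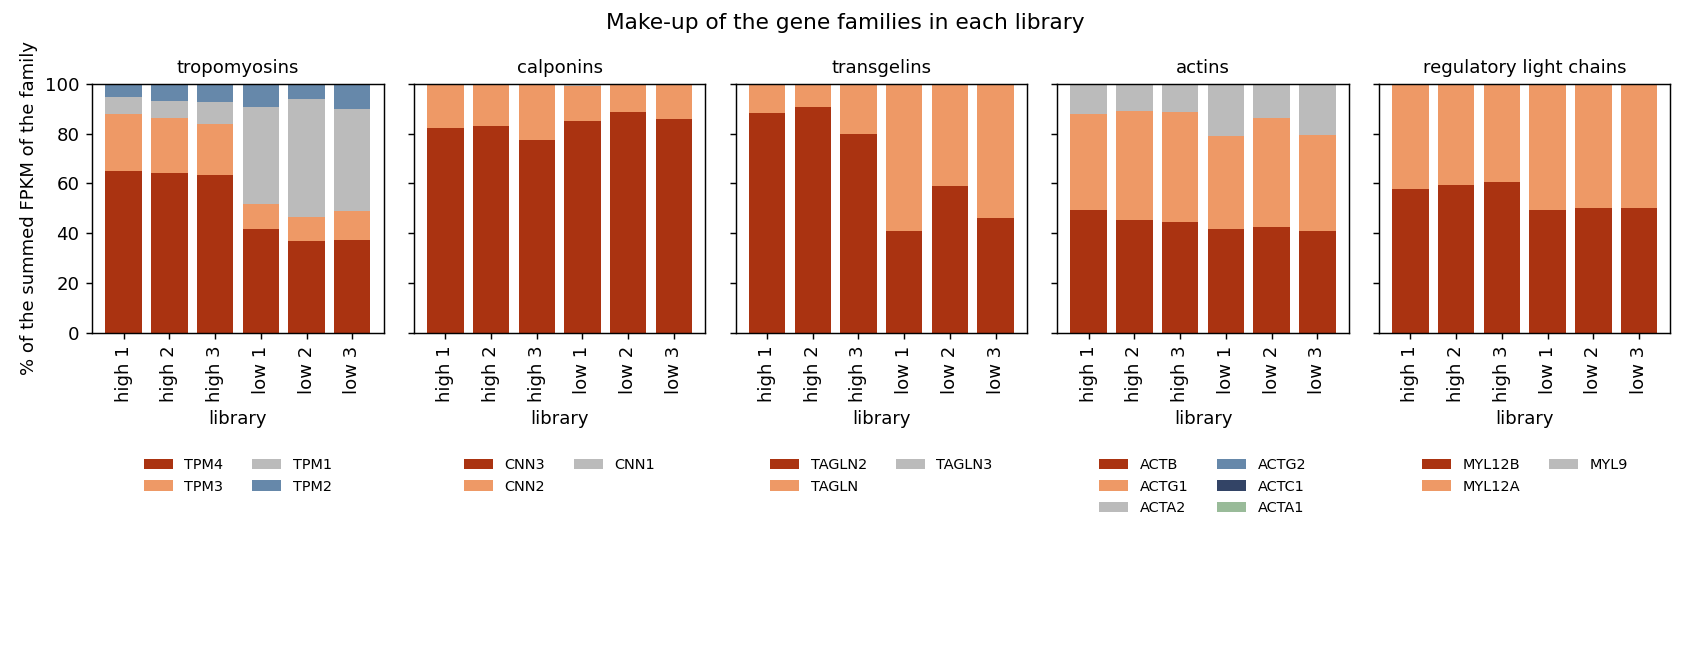
Share of each gene in the summed FPKM of its family (vertical axis, percent) in each of the 6 libraries, high 1 to 3 for EWSR1::FLI1high and low 1 to 3 for EWSR1::FLI1low replicates. TPM1 takes 38.6% to 47.4% of the tropomyosin bar and TAGLN 41.1% to 58.9% of the transgelin bar in the low libraries, against 6.66% to 8.78% and 8.75% to 19.8% in the high libraries.

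TAGLN (ENSG00000149591, chr11:117070086-117078180, plus strand) encodes transgelin, also named SM22-alpha, an actin-bundling protein used as an early marker of smooth muscle differentiation. Its levels were 6.18, 5.96 and 17.2 FPKM in the EWSR1::FLI1high libraries and 62.5, 94.0 and 120 FPKM in the EWSR1::FLI1low libraries. EWSR1::FLI1high replicate 3 stood above the other two of its group and below every EWSR1::FLI1low library. The log2 fold change was 3.21 (SE 0.39, 95% interval 2.33 to 4.10, adjusted p = 0.000860, limma), and between 2.98 and 3.67 when single libraries were left out. The TAGLN gene overlaps PCSK7 on the other strand over 3128 bases, and whether counting used the strand is not given in the sources used here. PCSK7 had 5.77 to 6.38 FPKM in EWSR1::FLI1high and 5.49 to 9.06 FPKM in EWSR1::FLI1low libraries.

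Of the other transgelins, TAGLN2 had 48.7 to 69.4 FPKM and 43.3 to 135 FPKM in the respective groups (log2 fold change 0.50, adjusted p = 0.388, limma). TAGLN3, a neuronal transgelin, was under the filter. TAGLN made up 13.3% ± 5.81 of the summed FPKM of the 3 genes in EWSR1::FLI1high and 51.3% ± 9.21 in EWSR1::FLI1low libraries (SD, n = 3), and TAGLN2 86.2% ± 5.77 and 48.5% ± 9.33. Neither share overlapped between the groups (exact permutation p = 0.1 for each).

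CALD1 (ENSG00000122786, chr7:134429003-134655480, plus strand) encodes caldesmon, which binds actin and tropomyosin and restrains the myosin ATPase. It had 37.5, 52.2 and 59.0 FPKM in the EWSR1::FLI1high libraries and 167, 186 and 194 FPKM in the EWSR1::FLI1low libraries. The EWSR1::FLI1low values lay close together and far above the others. The mean ratio was 3.68 and the log2 fold change 1.88 (SE 0.21, 95% interval 1.41 to 2.35, adjusted p = 0.000522, limma).

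Calponins bind actin and inhibit its movement by myosin, and CNN1 is the form of smooth muscle while CNN2 and CNN3 are found more widely. CNN1 (ENSG00000130176, chr19:11649582-11661138, plus strand) had 0.200, 0.132 and 0.271 FPKM in the EWSR1::FLI1high libraries, from 4, 2 and 4 reads, and 2.24, 1.41 and 1.82 FPKM in the EWSR1::FLI1low libraries, from 38, 22 and 54 reads. A count of 3 reads would be 0.150 to 0.203 FPKM in the EWSR1::FLI1high libraries, so CNN1 was near the limit of detection there. The pooled reads gave a rate ratio of 9.14 with an exact 95% interval of 4.80 to 19.6, which covers counting error only. Adding 1 to each FPKM shrinks the change of a gene this low, and on that scale the log2 fold change was 1.22 (SE 0.17, adjusted p = 0.00194, limma). Without EWSR1::FLI1high replicate 1, 2 or 3 the adjusted p was 0.0101, 0.0147 and 0.01003 in turn, each just over the limit.

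CNN2 (ENSG00000064666, chr19:1026585-1039067, plus strand) had 26.5, 25.6 and 42.8 FPKM in the EWSR1::FLI1high libraries and 34.1, 26.5 and 32.9 FPKM in the EWSR1::FLI1low libraries. The groups overlapped, with a log2 fold change of 0.01 and a 95% interval of -0.52 to 0.55 (adjusted p = 0.980, limma). CNN3 had 124 to 149 FPKM and 208 to 221 FPKM in the respective groups without passing the test (log2 fold change 0.68, adjusted p = 0.0190, limma). CNN3 made up most of the summed calponin FPKM throughout, 81.0% ± 3.02 in EWSR1::FLI1high and 86.6% ± 1.97 in EWSR1::FLI1low libraries. The share of CNN1 was 0.120% ± 0.0295 and 0.742% ± 0.177 (SD, n = 3, exact permutation p = 0.1).

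ACTA2 (ENSG00000107796, chr10:90694831-90751096, minus strand) encodes smooth muscle alpha-actin, the actin that marks smooth muscle and myofibroblasts. It had 104, 97.9 and 120 FPKM in the EWSR1::FLI1high libraries and 157, 128 and 210 FPKM in the EWSR1::FLI1low libraries. The groups did not overlap, although EWSR1::FLI1low replicate 2 was close to EWSR1::FLI1high replicate 3. The mean ratio was 1.54 and the log2 fold change 0.59 (SE 0.21, 95% interval 0.11 to 1.08), which did not pass the test (adjusted p = 0.0813, and 0.0204 to 0.257 over the alternatives, limma). ACTA2 was the second most abundant of the 10 genes before the knockdown, above 96.0% of all genes tested.

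On the other strand, ACTA2 as annotated overlaps STAMBPL1 over 40080 bases, ACTA2-AS1 over 5747 bases and the start of FAS over 683 bases. These had lower, slightly higher and lower values: STAMBPL1 64.4 to 76.3 FPKM and 34.9 to 47.7 FPKM, ACTA2-AS1 1.64 to 2.43 FPKM and 2.61 to 3.28 FPKM, and FAS 39.8 to 49.7 FPKM and 15.9 to 27.3 FPKM in EWSR1::FLI1high and EWSR1::FLI1low libraries. Whether their reads enter the ACTA2 value was not tested. Actin genes, tropomyosin genes and the MYL12A and MYL12B pair also hold near-identical stretches, between which reads can be split.

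The cytoplasmic actins ACTB and ACTG1 did not pass the test (log2 fold changes -0.19 and -0.13, adjusted p = 0.434 and 0.701, limma). ACTA2 made up 11.9%, 10.7% and 11.2% of the summed FPKM of 6 actin genes in the EWSR1::FLI1high libraries and 20.2%, 13.5% and 19.8% in the EWSR1::FLI1low libraries. These shares did not overlap (exact permutation p = 0.1). ACTB and ACTG1 together held most of the remainder in both groups.

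MYL9 (ENSG00000101335, chr20:35169900-35179850, plus strand) encodes the regulatory light chain of smooth muscle myosin, whose phosphorylation starts contraction. It had 2, 2 and 0 reads in the EWSR1::FLI1high libraries and again 2, 2 and 0 in the EWSR1::FLI1low libraries, or at most 0.210 and 0.204 FPKM. Every library was under the floor of 3 reads. The pooled reads gave a rate ratio of 0.802 with an exact 95% interval of 0.149 to 4.31, which covers counting error only. Any ratio within that interval is compatible with these reads. The ratio of CNN1, 9.14 with an interval of 4.80 to 19.6, was not tested against that of MYL9. The related light chain genes MYL12A and MYL12B had mean levels of 212 ± 6.61 and 307 ± 16.9 FPKM in EWSR1::FLI1high and 237 ± 35.1 and 235 ± 39.0 FPKM in EWSR1::FLI1low libraries (SD, n = 3). Neither passed the test (log2 fold changes 0.15 and -0.40, adjusted p = 0.577 and 0.139, limma).

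SRF (ENSG00000112658, chr6:43139007-43149244, plus strand) had 6.59, 7.79 and 10.0 FPKM in the EWSR1::FLI1high libraries and 4.90, 9.06 and 6.77 FPKM in the EWSR1::FLI1low libraries. The values of the groups were interleaved. The log2 fold change was -0.22 with a 95% interval of -0.76 to 0.31 (adjusted p = 0.548, limma). The cofactor genes listed as MKL1 (MRTFA) and MKL2 (MRTFB) had log2 fold changes of 0.24 and 0.22 (adjusted p = 0.352 and 0.545, limma), at 1.55 to 2.75 FPKM and 3.73 to 7.82 FPKM over the 6 libraries. The gene of myocardin, MYOCD, the cofactor of cardiac and smooth muscle, had 0.187 to 0.709 FPKM and was under the filter. RNA levels do not show where a cofactor protein resides.

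**Figure D3:**
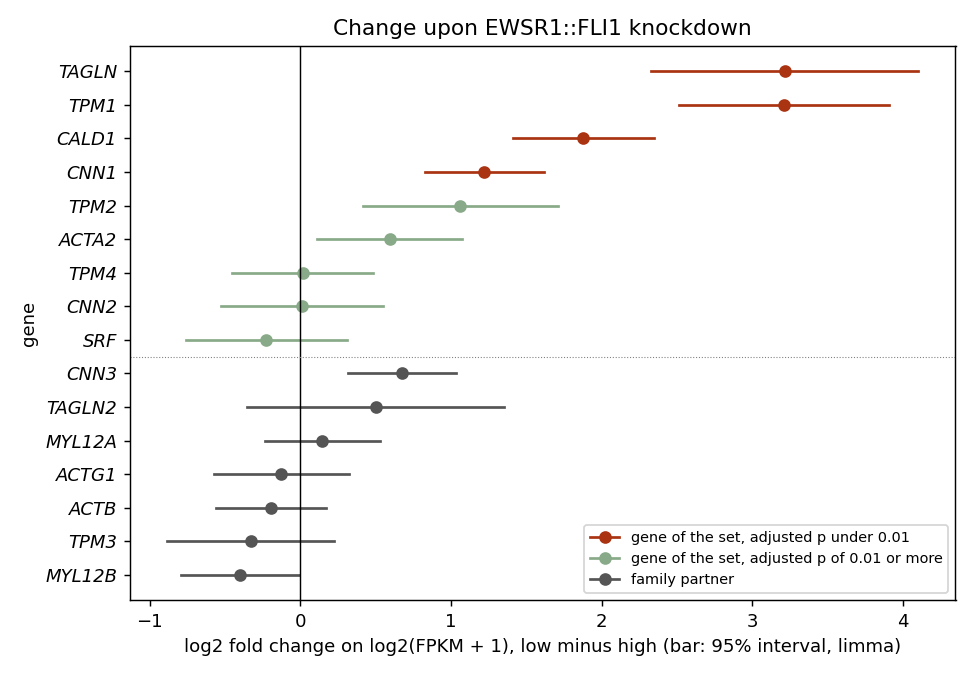
Log2 fold change on log2(FPKM + 1), EWSR1::FLI1low minus EWSR1::FLI1high (horizontal axis), of the 9 tested genes and 7 family partners, with bars for the 95% interval from limma. TAGLN and TPM1 lie at 3.21, CALD1 at 1.88 and CNN1 at 1.22, while the intervals of TPM4, CNN2 and SRF span 0.

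Ordered by mean FPKM, the 10 genes ran TPM4, ACTA2, CALD1, CNN2, TPM1, TPM2, TAGLN, SRF, CNN1 and MYL9 in EWSR1::FLI1high cells. Only TPM4 and ACTA2, ACTA2 and CALD1, and SRF and CNN1 were neighbours whose 3 values did not overlap. In EWSR1::FLI1low cells the order was TPM1, TPM4, CALD1, ACTA2, TAGLN, TPM2, CNN2, SRF, CNN1 and MYL9. There the ranges of neighbours overlapped among the first 4 genes and between TAGLN and TPM2. TPM1 moved from the fifth place to the first and TAGLN from the seventh to the fifth.

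The genes whose profile over the 6 libraries was closest to that of TPM1 (root mean square distance of log2(FPKM + 1) centred on the EWSR1::FLI1high mean) were CYR61 at 0.150, RTN1 at 0.210 and NT5E at 0.224. Closest to TAGLN were RTN1 at 0.264, MYOF at 0.367 and SPRY2 at 0.380. CYR61 had 2.08, 2.63 and 3.72 FPKM in the EWSR1::FLI1high libraries and 27.7, 46.3 and 34.1 FPKM in the EWSR1::FLI1low libraries. As in TPM1, replicate 3 was the highest of the former and replicate 2 the highest of the latter. CYR61 was chosen for its closeness over these same libraries, so this likeness follows in part from the choice.

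Other genes of the pathway were examined as lists. Among 36 tested genes of contractile filaments and stress fibres outside the 10, 6 were higher and 1 lower (median log2 fold change 0.44), beside 4.51% higher and 3.37% lower of all genes tested. Those that rose were MYLK, the kinase that phosphorylates the myosin light chain, PDLIM1 and TGFB1I1, adaptors of the stress fibre and the focal adhesion, TMOD1, which caps filament ends, VCL, the focal adhesion protein vinculin, and VIM, the intermediate filament protein vimentin. MYLK had 1.36, 1.61 and 2.56 FPKM in the EWSR1::FLI1high libraries and 8.42, 32.2 and 14.8 FPKM in the EWSR1::FLI1low libraries (log2 fold change 2.60, adjusted p = 0.00288, limma). For PDLIM1 the log2 fold change was 2.198, for TGFB1I1 1.82 and for TMOD1 1.64 (adjusted p = 0.000886, 0.000296 and 0.00199, limma). PDLIM5, another adaptor with PDZ and LIM domains, fell by 0.93 on the log2 scale (adjusted p = 0.00959, limma). When single libraries were left out, the adjusted p reached 0.0192 for MYLK, 0.0139 for TMOD1 and 0.0339 for VCL (limma). It reached 0.0410 for VIM and 0.0581 for PDLIM5, and stayed under 0.01 for PDLIM1 and TGFB1I1. Without EWSR1::FLI1high replicate 1, 2 or 3 or EWSR1::FLI1low replicate 3 the count of 7 became 4, 2, 2 or 3, and without EWSR1::FLI1low replicate 1 it became 16. Calls over all genes tested moved as well, from 7.88% to 2.86% at the lowest and to 14% without EWSR1::FLI1low replicate 1.

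Of 13 tested immediate-early targets of SRF, 0 passed at an adjusted p under 0.01 in limma, and limma-voom on recovered reads called 1. At an unadjusted limma p under 0.05, 6 were higher and 0 lower. Of these 6, 1 passed the filter only through its EWSR1::FLI1low values. Over all genes tested, 15.6% were higher and 18.7% lower at an unadjusted limma p under 0.05. Their median log2 fold change was 0.68, and the count was 3 without EWSR1::FLI1low replicate 1 and 7 with sample quality weights, a fit that called 30.6% of all genes.

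**Figure D4:**
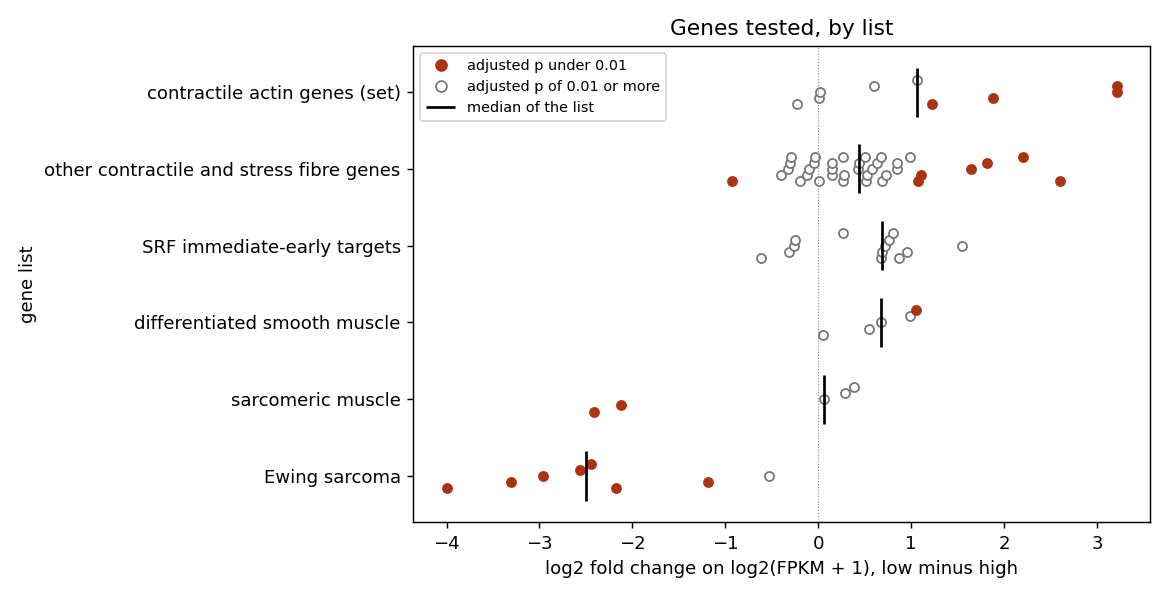
Log2 fold change on log2(FPKM + 1), EWSR1::FLI1low minus EWSR1::FLI1high (horizontal axis), of each tested gene of 6 lists, filled where the adjusted p was under 0.01 in limma, with a bar at the median of each list. The medians are 1.06 for the 10 genes, of which 9 were tested, 0.44 for other contractile genes, 0.68 for immediate-early targets and -2.50 for Ewing sarcoma genes.

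Markers of cell types were read beside these genes. Of 8 markers of differentiated smooth muscle, 5 were tested and 1, the smoothelin gene SMTN, was higher (2.23, 2.48 and 3.49 FPKM against 5.14, 7.89 and 7.23 FPKM, log2 fold change 1.05, adjusted p = 0.00883, limma). The SMTN call was lost without any one of the EWSR1::FLI1high replicates or of EWSR1::FLI1low replicates 2 and 3 (adjusted p up to 0.0491) and with eBayes without trend (0.01003). All 5 tested genes had a positive log2 fold change, as did 7012 of 15504 genes tested. In 4 of them every EWSR1::FLI1low library lay above every EWSR1::FLI1high library, as in 17.5% of all genes tested. At an adjusted p under 0.05 in limma 3 were higher, beside 1530 of 15504 genes tested. LMOD1, among the 4, passed the filter only through its EWSR1::FLI1low values. The 8 genes summed to 6.10 to 6.81 FPKM in EWSR1::FLI1high and 13.8 to 17.4 FPKM in EWSR1::FLI1low libraries. The defining genes MYH11, the smooth muscle myosin heavy chain, DES and MYOCD were under the filter, MYH11 at 0.149 to 0.416 FPKM and 0.176 to 0.632 FPKM in the respective groups. DES, the intermediate filament gene of muscle, had 0.0558 to 0.230 FPKM and 0.434 to 0.700 FPKM, without overlap but from 1 to 21 reads per library. Of 12 genes of sarcomeric muscle, 5 were tested, of which TNNT1 and ACTN2 fell by 2.41 and 2.12 on the log2 scale (adjusted p = 0.000490 and 0.000487, limma). The other 3 tested had positive log2 fold changes without passing, and the median of the 5 was 0.06. ACTA1 and ACTC1, under the filter, were higher in every EWSR1::FLI1low library than in any EWSR1::FLI1high library, from 1 to 22 reads. The remaining genes under the filter overlapped between the groups.

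Of 8 Ewing sarcoma markers, 7 were lower at an adjusted p under 0.01 in limma, beside 3.37% of all genes tested. The published study lists NR0B1 and CCK among genes that EWSR1::FLI1 regulates, so this list is not independent of the knockdown. PPP1R1A, CCK, PRKCB and NR0B1 had log2 fold changes of -4.00, -3.30, -2.96 and -2.56 (adjusted p = 8.08e-05, 0.000108, 0.000240 and 0.00172, limma). Without EWSR1::FLI1high replicate 2 the count of 7 became 4. CD99 did not pass (log2 fold change -0.53, adjusted p = 0.0670, limma). For all 8, every EWSR1::FLI1low library lay below every EWSR1::FLI1high library, as it did for 3652 of 15504 genes tested. In EWSR1::FLI1high libraries the 8 genes were present at 623 to 671 FPKM in sum, as the label of the line states. Of 14 markers of epithelium, endothelium and leukocytes, 5 were tested and 0 passed in limma. An endothelial marker, 1 of the 5, had an unadjusted limma p under 0.05 and was called by limma-voom and with sample quality weights. This marker passed the filter only through its EWSR1::FLI1low values. A leukocyte marker was called without EWSR1::FLI1low replicate 1 and with sample quality weights. The 4 endothelial markers summed to 0.746 to 1.04 FPKM in EWSR1::FLI1high and 1.32 to 2.34 FPKM in EWSR1::FLI1low libraries, levels of the order of CNN1. None of the 14 was at 0 in every library. The part of such RNA in the CNN1 values was not tested. The other two lists overlapped between the groups, with leukocyte markers at 6.29 to 9.63 FPKM and 6.35 to 19.8 FPKM in sum, and epithelial markers at 51.1 to 79.8 FPKM and 42.6 to 112 FPKM.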

How the data were processed

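RNAseq of 3 EWSR1::FLI1high and 3 EWSR1::FLI1low samples was analysed, with groups and replicate numbers from the sample titles. Per the labels and the published methods, the authors aligned reads to GRCh37 with STAR 2.5.0b. The submitters' processing notes also name bedtools 2.17.0, Cufflinks 2.2.1 and DESeq2 1.6.3. The authors deposited FPKM per gene symbol and library, and a DESeq2 table of their own comparison. Of that table the deposited mean normalized count (a signal averaged over the 6 libraries) was used only to recover reads: FPKM scaled to it were whole multiples of 1 read in 100% of values above 0, within 0.1 reads. Its fold changes, standard errors, statistics and p-values were not used.

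Genes averaging 0.5 FPKM or more were compared with limma 3.58.1 (R 4.3.3; lmFit, eBayes with trend) on log2(FPKM + 1), EWSR1::FLI1low minus EWSR1::FLI1high, with Benjamini-Hochberg adjustment over 15504 genes and a limit of 0.01. Shares within gene families were compared with exact two-sided permutation tests in Python 3.11.15 (pandas 2.3.3, scipy 1.17.1, matplotlib 3.10.9). The 10 genes and all lists were chosen with earlier results of these data known. Named genes were the 10, FLI1, family partners, SRF cofactors, up to 4 genes of each list with the largest absolute log2 fold change at an adjusted p under 0.01, and the 3 genes nearest in profile to each of the 10 that passed a log2 fold change of 2.5. VIM, VCL and PDLIM5, PCSK7, STAMBPL1, ACTA2-AS1, FAS, MYH11, DES, LMOD1, ACTA1, ACTC1 and CD99 were named after their values were seen.

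The fit was tested on simulated data: 91.5% of 200 genes given a log2 fold change of 3 were recovered, and 4 of 15304 unchanged genes were called. The simulation used that size only and the same spread in both groups. It therefore cannot show how smaller changes or unequal spreads are handled. Chi-square per degree of freedom between replicates was 4.25 to 6.27 in EWSR1::FLI1high and 20.2 to 31.5 in EWSR1::FLI1low libraries, so each counted as 1 replicate. Floors and read intervals cover counting error only. Alternatives were a pseudocount of 0.1, no filter, a stricter filter of 1 FPKM, quantile and median-ratio scaling, eBayes without trend, a replicate block, sample quality weights, limma-voom on recovered reads, an adjusted p of 0.05 and leaving out each library. Gene coordinates are from GENCODE v44 lifted to GRCh37, and promoter windows from RefSeq on GRCh38.p14. Isoforms and proteins were not analysed here, and 1 further gene list is not reported here.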

Additional observations from a re-analysis of the deposited data

How the results depend on the processing

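Of the 10 genes, the 4 higher calls became 0 without a filter on low values, where 26364 genes were tested and calls over all genes fell from 1222 to 89 higher and 35 lower, with 6 of the 10 still at an unadjusted limma p under 0.05. In the other alternatives the count was 3 to 5, with 3 when any EWSR1::FLI1high replicate was left out. For TPM4 the log2 fold change ran from -0.12 to 0.20, and for CNN2 from -0.12 to 0.24, when single libraries were left out, while sample quality weights gave -0.0352 for CNN2 and 0.14 for SRF. The share of TPM4 fell by 10.4 points when taken from summed reads, against 25.4 points from FPKM. Over all genes tested, the share called was 7.88% and became 11.7% after scaling by median ratios, 12.8% after quantile normalization, 30.6% with sample quality weights and 19.8% at an adjusted p of 0.05, so the list counts below rose along with calls in general. The promoter count of 3 genes became 5 with 1 mismatch. For contractile genes (7 calls) and immediate-early targets (0), the counts were 0 and 0 without a filter, 12 and 1 after scaling by median ratios, 13 and 1 after quantile normalization, 21 and 7 with sample quality weights, and 12 and 3 at an adjusted p of 0.05. For immediate-early targets the count was 1 each with a pseudocount of 0.1, a mean FPKM of at least 1 and limma-voom. Leaving out single libraries gave 2 to 16 and 0 to 3. With a replicate block the counts were 5 for the 10 genes and 1 for immediate-early targets. Samples with the same number correlated at 0.271, 0.089 and 0.124 in their deviations from group means. Those with different numbers correlated at -0.289, -0.242, -0.089, -0.052, -0.008 and 0.189. The main fit did not take the numbers to pair the samples, and whether they do was not settled. The cause of these changes was not tested.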

Other observations

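Exact CArG boxes were also counted in the promoter windows of all tested genes. Among 10847 tested genes with a window, 174 held a box, which is 1.604%. Of 517 genes that rose upon EWSR1::FLI1 knockdown 23 held a box (4.45%), and of 368 genes that fell 3 did (0.815%). These are counts without a test. The 23 genes had log2 fold changes of 1.05 to 2.86, and those with the largest were SPARCL1, MYLK and FILIP1L, named here after their values were seen. SPARCL1, which encodes a secreted matrix protein, had 1.95, 1.28 and 1.40 FPKM in the EWSR1::FLI1high libraries and 20.3, 16.6 and 15.5 FPKM in the EWSR1::FLI1low libraries. FILIP1L had 6.20, 8.75 and 9.98 FPKM in the EWSR1::FLI1high libraries and 43.8, 66.1 and 43.5 FPKM in the EWSR1::FLI1low libraries. TPM1 and CALD1, which rose among the 10 genes, had no exact box in their windows, and neither had CNN1.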
